A study of Mus musculus with 9 samples.

Results

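The transcripts of 3 glucose transporter genes, Slc2a1, Slc2a3 and Slc2a4, were followed in mouse cardiomyocytes and embryonic stem cells. The members were all probes of the deposited scanner table annotated to these genes, which came to 3 of its 45281 probes, 1 probe for each gene. All 3 probes passed the detection filter, as did 19707 probes in all. The series held 9 samples of total RNA, each hybridised as biotin-labelled cRNA to an Illumina whole-genome bead array, on which beads carrying one probe sequence report the brightness of the matching transcript. CMa were cardiomyocytes from the left ventricle, taken and purified at an age of 2 months. CMp were purified from newborn hearts at an age of 1 day. mES were embryonic stem cells kept undifferentiated, with TBV2 in their source name. Each group had 3 arrays, the labels record no treatment of any group, and no strain, genotype or sex is stated for any of them. The labels describe biological triplicates without naming an animal or culture for any sample, and p-values therefore cover the spread among the arrays, which may be technical. Age and heart region differ together between CMa and CMp and cannot be told apart.

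Facilitative glucose transporters of the Slc2a family let glucose cross the plasma membrane down its concentration gradient. Slc2a1 encodes GLUT1, which serves basal uptake in many growing and fetal tissues, and Slc2a3 encodes GLUT3, a transporter of high affinity best known from neurons and the early embryo. Slc2a4 encodes GLUT4, the transporter of striated muscle and fat that is held in intracellular vesicles and moved to the surface by insulin or, in muscle, by contraction. In rodent hearts GLUT1 is known as the main transporter before birth and GLUT4 as that of the adult.

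Both stem cell transporters were far lower in cardiomyocytes, and the muscle transporter was higher. Against mES, Slc2a3 fell 103-fold in CMp and 240-fold in CMa, where 2 of 3 arrays did not detect it and entered at their lowest detected level, and Slc2a1 fell 6.22-fold in CMp and 18.3-fold in CMa. After background correction, Slc2a4 was at least 5.71-fold higher in CMp and at least 47.2-fold higher in CMa than in mES. No mES array detected it. Without that correction its log2 changes were smaller, at 1.29 in CMp and 3.82 in CMa. From CMp to CMa the exchange went on, Slc2a4 being 8.26-fold higher in CMa and Slc2a1 2.94-fold lower. Each gene was called in each comparison by limma at an adjusted p under 0.05. Of all kept probes, 71.1% were called for CMp against mES, 73.5% for CMa against mES and 47% for CMa against CMp, so a call alone was common. The size of these differences also depended on the background correction, as given for each gene.

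The arrays were alike in depth, with a median scanner signal of 88.7 to 112.2 and 30.4% to 39.6% of probes detected at a detection p under 0.01, CMa arrays having the fewest. Arrays of a group correlated at 0.965 to 0.983 in CMa, 0.951 to 0.994 in CMp and 0.987 to 0.993 in mES across kept probes. CMp replicate 1 stood apart, at 0.951 with each of the other CMp arrays, which correlated at 0.994 with each other. Log2 changes and within-array differences of the transporters that rest on it are given with and without it. The labels fitted the defining markers. All 7 cardiomyocyte markers with a probe, among them Myh6, Tnni3 and Ryr2, were called higher in CMa and in CMp than in mES. All 7 pluripotency markers, among them Pou5f1 and Nanog, were called lower in both. Of all genes tested, 36.3% were called higher and 39.8% lower in CMa than in mES. For CMp against mES the shares were 34.9% and 38.2%. Markers of other heart cells were present too, most of all in CMp. In such bulk samples, fewer cells of a type and less RNA per cell cannot be told apart.

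**Figure D1:**
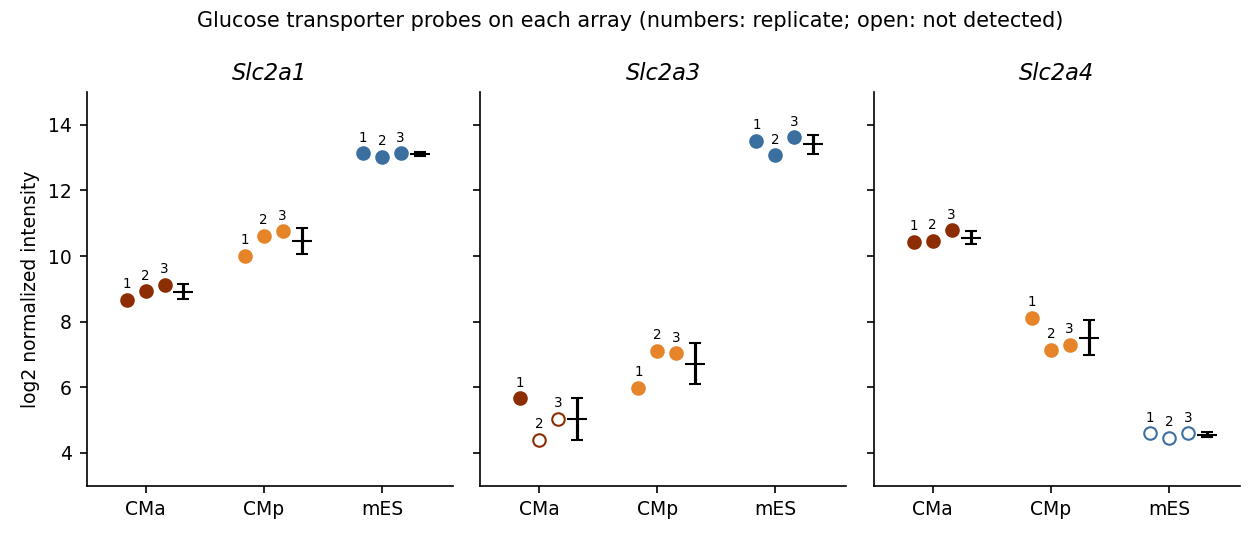
Level of each transporter probe on each of the 9 arrays, on a vertical axis of log2 normalized intensity, for CMa, CMp and mES. Points are arrays with their replicate number, open points were not detected, and bars are means ± SD (n = 3), with Slc2a1 and Slc2a3 highest in mES near 13 and Slc2a4 highest in CMa near 10.6. Levels are not comparable between panels, as each probe has its own brightness.

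Slc2a1, the transporter of basal uptake, was detected on all 9 arrays. On the scanner its signal was 322.4, 392.7 and 432.1 in CMa, 959.9, 1273.2 and 1307.7 in CMp, and 12961.9, 11751.8 and 11577.1 in mES. The order mES, CMp, CMa from high to low held for every array, without overlap between neighbouring groups. In mES the probe was brighter than 99.3% to 99.4% of all probes on its array. After background correction and quantile normalization its log2 level was 8.67, 8.92 and 9.13 in CMa, 10.01, 10.62 and 10.76 in CMp, and 13.14, 13.03 and 13.13 in mES. Group means were 8.91 ± 0.23 in CMa, 10.46 ± 0.40 in CMp and 13.10 ± 0.06 in mES (SD, n = 3 each).

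The fall of Slc2a1 exceeded the spread between replicates in all comparisons. The log2 change was -2.64 ± 0.22 (SE) for CMp against mES (limma, adjusted p = 2.08e-06) and -4.19 ± 0.22 for CMa against mES (adjusted p = 5.07e-08). Between the cardiomyocyte groups it was -1.56 ± 0.22 (95% interval -2.04 to -1.07, adjusted p = 0.000249). Among genes detected on at least 1 array of both groups, its decrease was of rank 107 of 7987 for CMa against mES, 384 of 8808 for CMp against mES and 615 of 8762 for CMa against CMp. Without CMp replicate 1, the lowest of the CMp arrays for this gene, the log2 change was -2.41 for CMp against mES and -1.78 for CMa against CMp. The authors' normalized log2 matrix gave 9.0 ± 0.17 in CMa, 10.29 ± 0.36 in CMp and 12.93 ± 0.06 in mES, which for this well-detected gene led to log2 changes of -2.64 for CMp against mES, -3.93 for CMa against mES and -1.29 for CMa against CMp.

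The promoter of Slc2a1 is shown because the gene is known to be induced under low oxygen, and this window was the one of the 3 genes' promoters held in the sequence table used. It spans 250 bases before to 50 bases after the annotated start (RefSeq, GRCm38.p6, chr4:119108495-119108794, plus strand). Capitals mark matches to the TATA box TATAAA, the GC box GGGCGG and the hypoxia response core ACGTG, each searched on both strands, and no 2 matches overlapped.
Slc2a1: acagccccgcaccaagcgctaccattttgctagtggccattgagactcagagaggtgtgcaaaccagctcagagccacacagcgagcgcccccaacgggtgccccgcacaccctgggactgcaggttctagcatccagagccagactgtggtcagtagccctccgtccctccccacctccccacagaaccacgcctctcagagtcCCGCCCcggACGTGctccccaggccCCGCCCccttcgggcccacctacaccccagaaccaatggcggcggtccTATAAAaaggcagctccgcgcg
The window held 2 GC boxes on the minus strand, 1 hypoxia response core and, starting 28 bases after the annotated start, 1 TATA box on the plus strand. Of 32851 promoter windows of this length, 35.7% held a GC box, 19.6% a hypoxia response core and 13.6% a TATA box, and a match is not shown to be a bound site.

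Slc2a3, the high-affinity transporter, fell further from mES than Slc2a1 did, whereas between CMa and CMp Slc2a4 differed most. Its scanner signal was 107.7, 84.5 and 99 in CMa, 145.1, 197.5 and 180.5 in CMp, and 16499.4, 12057.7 and 15932.8 in mES. On mES arrays it was brighter than 99.3% to 99.6% of probes. In CMp it was detected on all 3 arrays, whereas in CMa it was detected on replicate 1 and missed the detection limit on replicates 2 and 3. The log2 level was 5.66, 4.40 and 5.04 in CMa, 5.99, 7.12 and 7.04 in CMp, and 13.52, 13.07 and 13.62 in mES. The cardiomyocyte groups did not overlap, but a gap of 0.33 log2 units separated CMa replicate 1 from CMp replicate 1.

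The log2 change of Slc2a3 was -6.68 ± 0.37 for CMp against mES (adjusted p = 1.18e-07, limma), from means of 6.72 ± 0.63 in CMp and 13.40 ± 0.30 in mES (SD, n = 3 each). Without CMp replicate 1 this change was -6.32. For CMa against mES it was -8.37 ± 0.37 (adjusted p = 1.62e-08), with a CMa mean of 5.03 ± 0.63. Among the 8808 genes detected on at least 1 array of both CMp and mES, the decrease in CMp was of rank 7. With each CMa array raised to its own lowest detected level where it lay below it, the fall in CMa was 240-fold. In the authors' matrix the log2 changes were -5.37 for CMp against mES and -5.78 for CMa against mES.

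The size of the Slc2a3 difference between CMa and CMp varied with the processing, and its call did not hold in every setting. The log2 change was -1.68 ± 0.37 (95% interval -2.50 to -0.87, adjusted p = 0.00377, limma), a 3.21-fold fall, or 2.33-fold with undetected CMa arrays at their lowest detected level, and its rank among decreases was 528 of 8762. It was -0.69 without background correction (adjusted p = 0.0173), -1.06 with an offset of 50 (adjusted p = 0.00705), and -0.40 in the authors' matrix, where the call was lost (adjusted p = 0.08). Leaving out any 1 array kept the call, with log2 changes of -2.05 to -1.37, the largest of them without CMp replicate 1.

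Slc2a4, the insulin-responsive transporter, ran the other way. Its scanner signal was 1068.8, 1107.5 and 1266.7 in CMa, 337.2, 198.3 and 198.3 in CMp, and 111.1, 107.2 and 102.4 in mES. All CMa and CMp arrays detected it, and no mES array did, so that the mES level is known only as an upper bound. The log2 level was 10.43, 10.47 and 10.78 in CMa, 8.12, 7.14 and 7.29 in CMp, and 4.60, 4.46 and 4.60 in mES. CMp replicate 1 was the highest of its group, yet below every CMa array.

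Between the cardiomyocyte groups, where all arrays detected it, the log2 change of Slc2a4 was 3.05 ± 0.25 (95% interval 2.5 to 3.6, adjusted p = 7.53e-06, limma), from means of 10.56 ± 0.19 in CMa and 7.51 ± 0.53 in CMp (SD, n = 3 each). It was the increase of rank 62 among 8762 genes detected on at least 1 array of both groups. Without CMp replicate 1 the log2 change was 3.35, and in the authors' matrix it was 2.18 (adjusted p = 1.02e-05). Adult cells thus carried more Slc2a4 signal than newborn cells under each setting tried.

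Against mES, background-corrected Slc2a4 was at least 47.2-fold higher in CMa (adjusted p = 1.05e-08, limma) and at least 5.71-fold higher in CMp (adjusted p = 2.26e-06). Each mES array entered at the level of its dimmest detected probe. The fitted log2 changes were 6.01 ± 0.25 in CMa and 2.96 ± 0.25 in CMp, the latter 2.66 without CMp replicate 1. They depend on where the undetected mES signal is placed. Without background correction they were 3.82 for CMa and 1.29 for CMp, and in the authors' matrix 2.97 and 0.79 (adjusted p = 3.84e-07 and adjusted p = 0.00107). The direction and the call held in each of these, whereas the fold bounds hold only for the background correction used.

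**Figure D2:**
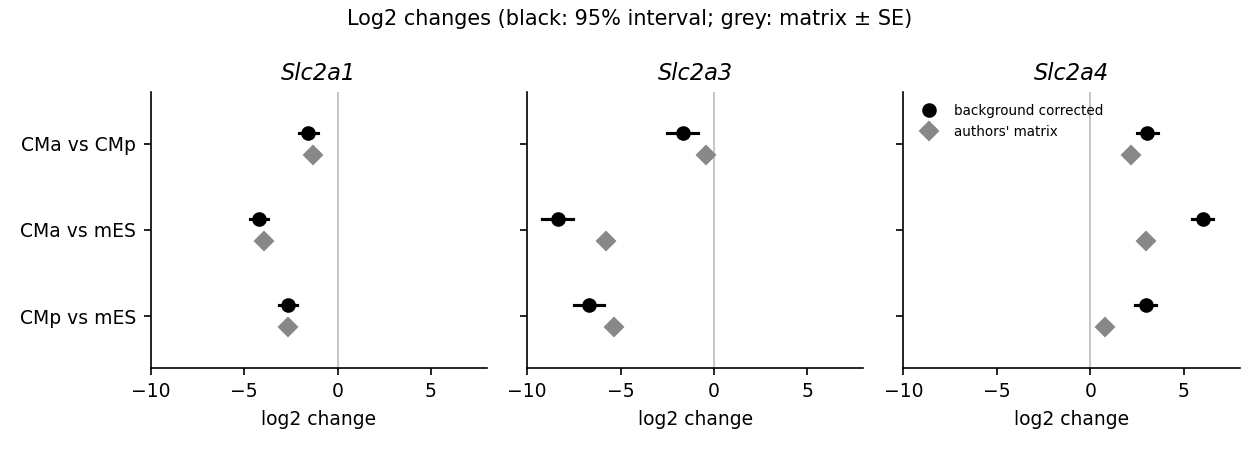
Log2 change of each transporter, on the horizontal axis, in the comparisons listed on the vertical axis. Black points are the limma estimates after background correction with 95% intervals, and grey diamonds are those of the authors' matrix ± SE. Slc2a1 and Slc2a3 lie below 0 and Slc2a4 above 0 in each comparison, and the diamonds of Slc2a3 and Slc2a4 lie nearer to 0.

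An exact two-sided permutation test of each gene and comparison over its 6 arrays gave p = 0.1 in every case, the smallest p that 3 against 3 arrays allow. The groups thus did not overlap for any transporter, as was true of 75.4% of kept probes for CMp against mES, 77.9% for CMa against mES and 51.5% for CMa against CMp. The median log2 change over the 10800 genes with a kept probe was -0.09, -0.07 and 0.01 in the same order. Scaling arrays to a common median moved these medians to -0.59, -0.78 and -0.20. Under that scaling no transporter changed direction or lost its call, each change being tested against 0 and not against the shifted median.

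The newborn cells held an intermediate level of all 3 genes. On a scale from the mES mean at 0% to the CMa mean at 100%, Slc2a1, detected on all arrays, had gone 73.7%, 59.2% and 55.8% of the way on CMp replicates 1, 2 and 3. The median of 6309 genes called and changed at least 2-fold between CMa and mES was 77.8%, 77.1% and 77.2% on the same arrays. For Slc2a4 the mES end and for Slc2a3 the CMa end of the scale lie at background, so their position depends on how background is placed. Slc2a4 had gone 59.3%, 43% and 45.5% of the way after background correction, 44.6%, 27.2% and 29.6% without it, and 36.6%, 20.5% and 22.6% in the authors' matrix. Slc2a3 had gone 88.6%, 75% and 76%, against 95%, 86.2% and 86.9% without background correction and 97%, 90.8% and 91.3% in the authors' matrix. On each CMp array Slc2a3 was furthest along and Slc2a4 least far in each of these 3 settings. CMp replicate 1 was nearer to CMa than the other CMp arrays for each transporter. The summed normalized intensity of 5 endothelial markers was 12160 on that array against 21320 and 20640 on the others, and that of 6 fibroblast markers 21910 against 17750 and 16860, and their part in the difference was not tested.

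Differences between probes on the same array removed shifts shared by both. Slc2a4 minus Slc2a1 was 1.76, 1.55 and 1.65 in CMa, -1.89, -3.48 and -3.47 in CMp, and -8.55, -8.57 and -8.52 in mES, where zero has no meaning because probes differ in brightness. Where all arrays detected both genes, between CMa and CMp, this difference changed by 4.60 ± 0.53 log2 units (SE from the arrays, n = 3 each), or by 5.13 without CMp replicate 1 and 3.47 in the authors' matrix. Against mES, where Slc2a4 was not detected, its size depends on the background: for CMa it was 10.20 after background correction, 7.77 without it and 6.90 in the authors' matrix, and for CMp 5.60 (5.07 without CMp replicate 1), 3.85 and 3.43. Slc2a4 minus Slc2a3 rests on undetected signal in mES and on 2 of 3 CMa arrays, and changed by 14.38, 10.27 and 8.75 for CMa against mES in the same 3 settings, by 9.64 (8.98 without CMp replicate 1), 7.05 and 6.16 for CMp against mES, and by 4.73 (5.40 without CMp replicate 1), 3.21 and 2.59 for CMa against CMp. The balance of both pairs moved towards Slc2a4 at each step without overlap between groups. Slc2a1 and Slc2a3 fell unequally from mES, their difference changing by 4.05 ± 0.21 in CMp (3.91 without CMp replicate 1) and by 4.18, 2.5 without background correction or 1.85 in the authors' matrix in CMa. Between CMa and CMp that difference changed by 0.13 ± 0.47 (exact permutation p = 0.8), or 0.27 without CMp replicate 1, a sign that turned with an offset of 50, cyclic loess, no background correction and the authors' matrix. Of the 9 comparisons of pairs, the other 8 gave an exact permutation p of 0.1, the smallest possible, and 0.1125 after Benjamini-Hochberg adjustment.

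**Figure D3:**
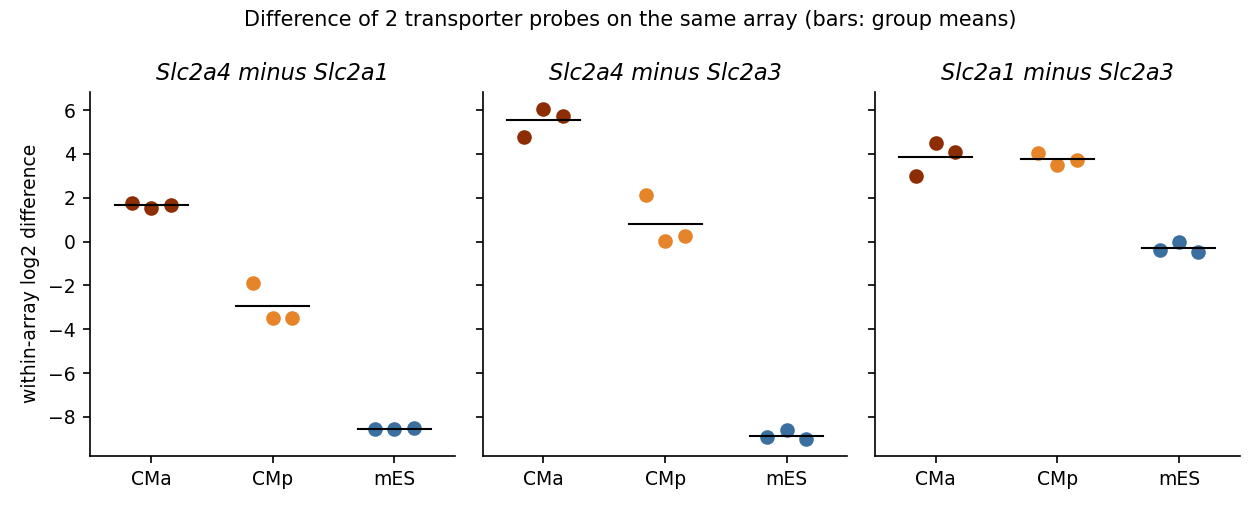
Log2 difference of 2 transporter probes on the same array, on the vertical axis, for the 3 arrays each of CMa, CMp and mES, with bars at group means. Slc2a4 minus Slc2a1 and Slc2a4 minus Slc2a3 are highest in CMa, near 1.65 and 5.53, and lowest in mES, near -8.54 and -8.85. Slc2a1 minus Slc2a3 averages 3.87 in CMa, 3.75 in CMp and -0.30 in mES, and its small difference between CMa and CMp turns sign with 4 other settings, cyclic loess among them.

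The other cells of the heart also differed between the groups. Against CMp, CMa had lower signal for all 5 erythroid, all 5 endothelial, all 6 fibroblast and all 3 leukocyte and macrophage markers tested, for the platelet marker Pf4 and for 1 of 4 smooth muscle and pericyte markers, Acta2 (-2.54), while Myh11 (-0.25), Pdgfrb (-0.38) and Rgs5 (0.11) were not called. At the same time 4 of 7 cardiomyocyte markers were higher and none lower. Of all genes tested, 25.3% were called higher and 24.8% lower in CMa than in CMp. The summed normalized intensity of the erythroid markers was 8728 to 17200 in CMa, 92130 to 102300 in CMp and 110 to 128.2 in mES, and that of the fibroblast markers 4533 to 5812, 16860 to 21910 and 125.6 to 132.2. Slc2a1, which fibroblasts and endothelium are also known to express, fell together with these markers between CMp and CMa. The part of these other cells in the differences of the transporters was not tested. Against mES all of these markers were higher in CMp. In CMa 4 of 5 erythroid, 5 of 5 endothelial, 5 of 6 fibroblast and 2 of 3 leukocyte markers were higher than in mES. Of all genes tested, 34.9% were called higher in CMp and 36.3% in CMa than in mES. Cardiomyocyte markers summed to 129600 to 164300 in CMa and 114500 to 128200 in CMp. Of the leukocyte and platelet markers, Ptprc, Itgam, Ppbp and Gp9 were detected on no array, whereas Cd14, Csf1r, Adgre1 and Pf4 were detected on all CMp arrays and Pf4 on all CMa arrays too (6.13 in CMa, 7.91 in CMp and, undetected, 4.28 in mES).

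Most of the other sugar transporters had no kept probe. Of 9 further Slc2a genes listed, 8 had a probe and 4 were kept, while Slc2a9 was detected on 1 CMa array and Slc2a2, Slc2a5 and Slc2a12 on none. Slc2a8, an intracellular hexose transporter, was higher in CMa, by 1.18 ± 0.28 against mES and 1.08 ± 0.28 against CMp, calls lost with arrays scaled to a common median. Slc2a10, linked to arterial tortuosity in humans, was detected in CMp alone, at 5.94, and was at least 1.92-fold higher there than in mES (adjusted p = 5.99e-06, limma) and at least 1.37-fold lower in CMa than in CMp. Slc2a13, a proton myo-inositol transporter, was higher in CMp than in mES by at least 1.75-fold, and its lower call in CMa against CMp (-0.70) was lost in 13 of 19 settings. Slc2a6 averaged 4.76 in CMa, 5.50 in CMp and 5.40 in mES, and its lower calls in CMa were lost in 9 of 19 settings against mES and 10 of 19 against CMp, the authors' matrix among them. All 6 sodium-glucose cotransporters of the Slc5a family had a probe and none was kept, Slc5a4b being detected on 1 mES array and the others on none.

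Genes of glucose handling were read from lists of 68 genes, of which 44 had a kept probe. For CMp against mES 31 rose and 3 fell, for CMa against mES 28 rose and 7 fell, and for CMa against CMp 9 rose and 11 fell. Over all genes tested, 34.9% rose and 38.2% fell for CMp against mES, 36.3% rose and 39.8% fell for CMa against mES, and 25.3% rose and 24.8% fell for CMa against CMp. Calls and directions held under all 19 alternative settings for 23 of 34, 23 of 35 and 10 of 20 of the called genes in the same order. Hexokinases trap glucose once it has entered. Hk1 rose by 1.59 ± 0.39 in CMp and 2.32 ± 0.39 in CMa against mES, and Hk3, detected in CMp alone, was at least 1.54-fold higher there than in mES and at least 1.09-fold lower in CMa than in CMp, while Hkdc1 was detected on 1 mES array and Hk2 had no probe under that symbol. The other kept probe of Hk1 gave 0.72 in CMp and 1.41 in CMa.

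Slc2a4 protein is carried by vesicles, and 16 genes of that traffic were tested. For CMp against mES 11 rose and 2 fell (median 0.68), for CMa against mES 10 rose and 4 fell (median 0.71), and for CMa against CMp 3 rose and 3 fell (median 0.01). The shares of all genes tested that rose and fell were 34.9% and 38.2%, 36.3% and 39.8%, and 25.3% and 24.8% in the same order. With arrays scaled to a common median, 5 rose and 3 fell (median 0.03), 4 rose and 5 fell (median -0.15), and 2 rose and 5 fell (median -0.17) in the same order, so the balance of this list followed the scaling. Tbc1d4 (AS160), the GTPase-activating protein that holds Slc2a4 vesicles back until insulin acts, was undetected in mES, at least 1.82-fold higher in CMp and at least 5.24-fold higher in CMa. Tbc1d4 also rose from newborn to adult cells, at 7.39 in CMa and 5.86 in CMp (1.53 ± 0.24, adjusted p = 0.000486, limma), in the same direction as Slc2a4. Its relative Tbc1d1 fell in CMa, by -1.50 ± 0.25 against mES and -1.79 ± 0.25 against CMp. Vamp2, a vesicle SNARE of the Slc2a4 compartment, rose in each comparison, by 1.65 and 2.49 against mES in CMp and CMa and by 0.84 in CMa against CMp. Myo1c, a motor protein at the membrane, rose against mES by 1.73 in CMp and 1.72 in CMa by its brightest probe. Its 3 kept probes spread from 0.71 to 1.73 in CMp and from 0.07 to 1.72 in CMa. Stxbp3, which binds syntaxin 4, was at least 2.41-fold higher in CMp than in mES. Rhoq (TC10), a small GTPase of insulin signalling, fell by -2.23 in CMp and -2.65 in CMa against mES, and Aspscr1 (TUG), a tether of the vesicles, by -0.69 and -0.58. Rab8a fell in CMa, by -0.53 against mES and -0.57 against CMp. Rab10 at 0.76, Sort1 at -0.68 and Rab8a were called for CMa against CMp, and each lost that call when some arrays were left out.

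Signals that move Slc2a4 to the surface were carried by 12 tested genes, of which 10 rose and none fell in CMp and in CMa against mES (medians 1.45 and 1.26), against 7 risen and 1 fallen in each with arrays scaled to a common median. Of all genes tested, 34.9% rose and 38.2% fell in CMp against mES, and 36.3% and 39.8% in CMa. The insulin receptor gene Insr rose by 3.39 ± 0.40 in CMp and 4.15 ± 0.40 in CMa, and Pik3r1, the regulatory subunit of phosphoinositide 3-kinase, by 3.49 ± 0.30 and 3.98 ± 0.30, values of the brightest probe. The other kept probe of Insr gave 1.41 in CMp and 0.74 in CMa, and the lowest of 3 kept probes of Pik3r1 0.50 and 0.82. Prkaa2, a catalytic subunit of the energy sensor AMPK, rose by 3.02 ± 0.27 and 3.79 ± 0.27. Prkag1 and Prkab2, further AMPK subunits, rose by 2.29 and 1.53 in CMa against mES. Between CMa and CMp 4 rose and 2 fell, beside 25.3% and 24.8% of all genes tested. Irs2, an adaptor of the insulin receptor, and Igf1r fell in CMa against CMp by -1.62 ± 0.25 and -1.45 ± 0.31, whereas both were higher in CMp than in mES, by 2.53 and 2.32. Prkab2 (0.99), Prkaa2 (0.77) and Prkag1 (0.67) rose in CMa against CMp, the first losing its call with arrays scaled to a common median and Prkaa2 in 8 of 19 settings, among them without CMp replicate 1 (0.45, adjusted p = 0.0796).

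Of 10 tested regulators of transporter transcription and turnover, 6 rose in each cardiomyocyte group against mES, while 1 fell in CMp and 2 in CMa. For CMa against CMp 1 rose and 2 fell. With arrays scaled to a common median, 6 rose in each group against mES, while 2 fell in CMp and 4 in CMa. Over all genes tested, 34.9% rose and 38.2% fell in CMp against mES, and 36.3% and 39.8% in CMa. The shares for CMa against CMp were 25.3% and 24.8%. Mef2c, of a factor family that binds the Slc2a4 promoter, was at least 55.6-fold higher in CMp and at least 42.6-fold higher in CMa, and Ppargc1a, a coactivator of mitochondrial genes, at least 78.3-fold and 92.7-fold. Kept probes of Mef2c spread from 1.52 to 6.14 on the log2 scale in CMp and from 1.01 to 5.75 in CMa. Neither gene, by its brightest probe, was called between CMa and CMp, at -0.38 ± 0.28 and 0.24 ± 0.19. Kept probes of Mef2c ran from -0.51 to 0.68 in that comparison. The part of either gene in the level of Slc2a4 was not tested. Esrra, a nuclear receptor of energy metabolism, rose in each comparison, by 2.73 in CMp and 3.85 in CMa against mES and by 1.12 ± 0.19 in CMa against CMp. Epas1, a hypoxia-inducible factor, rose by 2.09 and 2.73 against mES. By their brightest probes, Hif1a (-0.28 and -0.84) and Arnt (-0.06 and -0.32) of the same list were not called against mES. Txnip, an arrestin that lowers glucose uptake through Slc2a1, rose by 1.51 and 1.92 against mES. Arrdc4, its relative, fell, by -1.20 in CMp and -3.11 in CMa against mES and by -1.91 in CMa against CMp. Myc, a known activator of Slc2a1, was undetected in CMa, at least 1.45-fold below mES and at least 1.75-fold below CMp, both calls being lost in the authors' matrix and that against mES also with cyclic loess and without background correction.

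**Figure D4:**
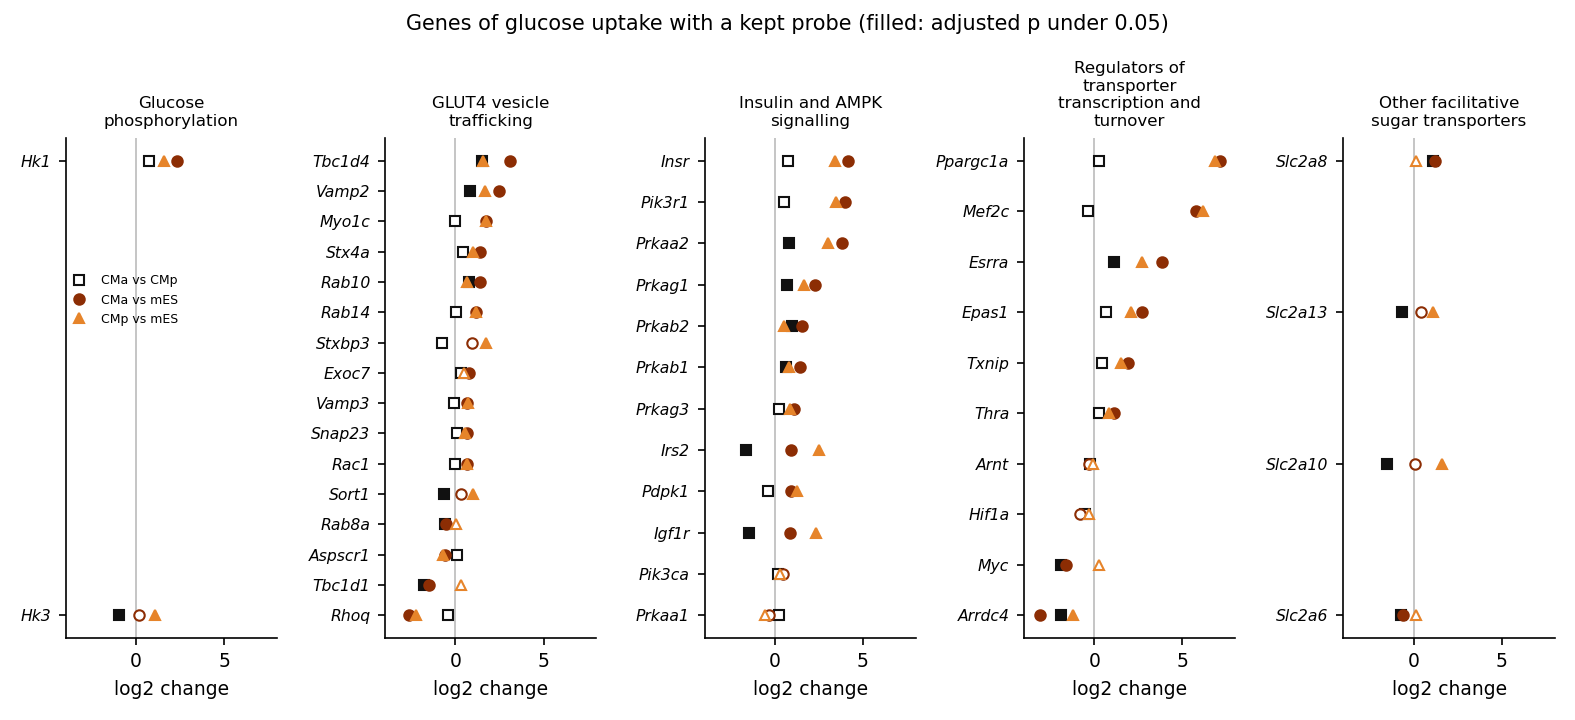
Log2 change, on the horizontal axis, of each gene of glucose uptake with a kept probe, in 5 lists with genes down the vertical axis. Squares are CMa against CMp, circles CMa against mES and triangles CMp against mES, filled where the adjusted p was under 0.05. Ppargc1a and Mef2c lie furthest to the right for both comparisons with mES, and Arrdc4 lies furthest to the left for CMa against mES.

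The genes closest to each transporter in pattern were found by the root mean square difference of centred log2 levels over the 9 arrays among 10799 other genes. Nearest to Slc2a1 was Chaf1a, a subunit of chromatin assembly factor 1, at 0.15 log2 units, followed by Uchl1, a neuronal deubiquitinase, and Kdm5b, a histone demethylase, both at 0.17. The median distance of all genes from Slc2a1 was 1.78. The genes nearest to Slc2a3 lay further off, the amino acid transporter gene Slc7a3 at 0.43, the pluripotency factor gene Tfcp2l1 at 0.47 and the glycine cleavage gene Gldc at 0.70, against a median of 3.64. Nearest to Slc2a4 were Asph at 0.16, Grb14, an adaptor that binds the insulin receptor, at 0.23 and Txlnb, a taxilin of muscle, at 0.26, against a median of 2.57. Asph stood at 10.49 ± 0.09 in CMa, 7.14 ± 0.69 in CMp and 4.33 ± 0.03 in mES, and Slc7a3 at 4.30 ± 0.03, 5.96 ± 0.58 and 12.10 ± 0.08 (SD, n = 3 each). All 9 arrays share 3 groups, so likeness here mostly describes group means.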

How the data were processed

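Intensities of 45281 probes on 9 arrays were taken from the scanner table, in which, per the file headers, the deposited mean bead signal intensity is linear, not normalized between arrays, and followed by a detection p-value. As an alternative, the log2 matrix deposited by the authors was used, for which the submitters' processing notes name lumi. Its entries for the 3 probes lay within 0.03 log2 units of those of probes with like scanner signal. In R 4.3.3 with limma 3.58.1, background was corrected from the detection p-values (nec, offset 16), followed by quantile normalization and log2. The filter kept 19707 probes, those detected (p under 0.01) on 3 or more of the 9 arrays. A mean per group was fitted (lmFit, eBayes) and p-values adjusted by Benjamini-Hochberg over kept probes, with calls at 0.05. Lists used the brightest kept probe per gene (10800 genes), by the GEO platform annotation updated through Entrez IDs. Kept probes of a listed gene were called in opposite directions for Rab10 and Arnt (CMp against mES) and Igf1r (CMa against mES). Where a group was undetected on all its arrays, a fold change is a bound against the lowest detected level of each array. Such a bound holds only for the background correction used. Of each list up to 9 genes long all detected genes were named, of longer ones up to 5 called genes with the largest changes and those against the majority. Members and lists were chosen with earlier results of these data known. The fit was tested on simulated data. Same-numbered arrays of 2 groups deviated together by -0.146 to 0.484, so the numbers were not taken as pairs. With 3 arrays a group, their number limits precision.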

Additional observations from a re-analysis of the deposited data

How the results depend on the processing

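Under 19 alternatives the 9 transporter changes kept their direction in all cases and their call in 170 of 171, the exception being Slc2a3 for CMa against CMp in the authors' matrix (-0.40, adjusted p = 0.08), and the cause was not tested. Leaving out 1 array at a time gave log2 changes of -2.79 to -2.41, -4.30 to -4.07 and -1.78 to -1.41 for Slc2a1 (CMp against mES, CMa against mES, CMa against CMp), -6.89 to -6.32, -8.68 to -8.05 and -2.05 to -1.37 for Slc2a3, and 2.66 to 3.15, 5.90 to 6.07 and 2.86 to 3.35 for Slc2a4. With the replicate number as a block the adjusted p of Slc2a3 for CMa against CMp was 0.00511 and all 9 transporter calls held, with 14309, 14768 and 9672 probes called in place of 14006, 14494 and 9266. The Slc2a1 minus Slc2a3 difference between CMa and CMp turned to -0.04 with cyclic loess, -0.44 with an offset of 50, -0.71 without background correction and -0.89 in the authors' matrix, and the cause was not tested. With arrays scaled to a common median, listed genes lower in CMp than mES numbered 6 in place of 3, those higher and lower in CMa than mES 18 and 11 in place of 28 and 7, and those higher in CMa than CMp 5 in place of 9, while higher calls went to 33.8%, 28.8% and 32.6% of called probes in place of 45.6%, 45.2% and 49.4%. Leaving out 1 array gave 7 to 13 genes lower in CMa than CMp, 7 without CMp replicate 2. Signal near background limits Slc2a3 in CMa and Slc2a4 in mES. Without CMp replicate 1, a setting added after seeing the data for the within-array differences, as were the other settings for the CMp positions, no within-array difference changed direction.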
